A study of Mus musculus with 20 samples.

Results

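Heat shock proteins and chaperonins were examined in aged mouse muscle through 10 genes picked by name for their place in the family: Hspa1a, Hspa1b, Hspa8, Hsph1, Dnajb1, Hsp90aa1, Hspb1, Cryab, Hspd1 and Hspe1. These were 10 of the 55416 genes listed, and all 10 had enough reads to be tested among the 14471 genes that were. The muscles were quadriceps of wild-type (WT) male C57BL/6J mice aged 26 to 28 months. The 10 saline muscles had received 1 intramuscular dose of 50 µL of 0.9% saline, and the 10 secretome muscles 50 µL of a cell-free product made from medium of human pluripotent stem cells. All mice had fasted for 4 h before the injection, and the injected muscle was collected 3 h after it. The study used 1 injected leg per mouse, so both groups carried an injection and no uninjected muscle was compared.

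Heat shock proteins are chaperones: they bind proteins that are unfolded or newly made, keep them from clumping and help them reach their shape. HSP70 proteins bind and release clients in cycles of ATP hydrolysis, driven by J-domain partners and reset by nucleotide exchange factors, while HSP90 takes over clients that are nearly folded, small heat shock proteins hold clients without using ATP, and the chaperonin encloses them in the mitochondrial matrix. Under heat, injury or heavy contraction, the transcription factor HSF1 forms trimers that bind repeated nGAAn units in front of the stress-inducible members, and fibres rich in contractile protein carry high amounts of the small heat shock proteins at rest.

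Libraries held between 13286983 and 22987237 reads counted on genes. The share of reads on Ttn, which encodes the giant sarcomere protein titin, was 7.02% to 11.03% in libraries 1 to 5 (saline replicates 1 to 5), 16.4% to 21.1% in libraries 6 to 15 (saline replicates 6 to 10 and secretome replicates 1 to 5) and 14.2% to 14.7% in libraries 16 to 20 (secretome replicates 6 to 10). These ranges were drawn from the titin share itself, and no source calls them batches. Each gene was therefore compared over all 20 muscles, within libraries 6 to 15, the only range with both treatments, and between libraries 16 to 20 and 1 to 5, where library number and treatment cannot be told apart. All 9 fast and general muscle fibre markers were detected, with a summed level of 123647 to 335494 CPM (counts normalised for library size, here by TMM), which matched the labelled tissue. In bulk muscle, fewer cells of a type and less RNA per cell cannot be told apart.

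The members spanned a wide range of levels. Per kilobase of exon in saline muscle, Cryab had the highest mean level, 240 ± 50.3 CPM per kb (SD, n = 10), followed by Hspa8 at 147 ± 36.6 and Hspb1 at 147 ± 70.6, and these 3 neighbours overlapped between muscles. Hspd1 had 36.3 ± 7.58 CPM per kb and lay below Hspb1 and above Hspe1 in 20 of 20 muscles with no overlap of the ranges. Hspe1 (11.7 ± 3.07), Hsp90aa1 (11.3 ± 2.14) and Hsph1 (9.27 ± 2.00) followed in CPM per kb, again overlapping as neighbours. Length here joins all annotated exons of a gene, 7266 bases for Hsph1 and 3931 for Hsp90aa1. Their longest coding transcripts have 3802 and 3281 bases, so the order and overlap of neighbours can change with the length used. Hspa1a (3.46 ± 1.99), Hspa1b (2.37 ± 1.78) and Dnajb1 (1.62 ± 0.409) had the lowest levels per kb, so that the stress-inducible HSP70 pair and its J-domain partner were scarce in saline muscle while the constitutive HSP70 and the small heat shock proteins were abundant. Stretches of 150 bases shared with other transcripts, mostly pseudogenes, made up 36.2% of the Hsp90aa1 transcript, 36.6% of Hspb1, 18.6% of Hspd1 and 14.1% of Hspe1, and 0% of Hsph1, Dnajb1 and Cryab. The pseudogene that shared most with each of these 4 held at most 41 reads per library.

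Hspa1a and Hspa1b encode the stress-inducible cytosolic HSP70 and lie close together on chromosome 17. Their upstream windows are shown because the pair moved together in the results that follow and because their near identity limits how reads can be assigned. The windows are the 250 bases before each start in RefSeq (GRCm38.p6), Hspa1a at chr17:34972157-34972406 and Hspa1b at chr17:34959239-34959488, both on the minus strand, and capitals mark a facing pair of heat shock units, written GAANNTTC or TTCNNGAA.
Hspa1a: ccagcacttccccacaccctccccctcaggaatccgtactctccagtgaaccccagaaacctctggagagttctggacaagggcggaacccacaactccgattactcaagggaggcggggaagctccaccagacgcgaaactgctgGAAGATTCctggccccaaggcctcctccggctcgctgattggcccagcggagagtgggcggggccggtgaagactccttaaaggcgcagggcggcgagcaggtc
Hspa1b: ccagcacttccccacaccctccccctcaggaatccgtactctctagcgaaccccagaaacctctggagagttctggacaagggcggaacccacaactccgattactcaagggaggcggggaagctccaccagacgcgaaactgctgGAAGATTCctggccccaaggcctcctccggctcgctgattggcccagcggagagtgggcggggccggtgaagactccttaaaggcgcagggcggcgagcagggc
The windows were identical at 247 of 250 bases. Counted from 1 at the 5′ end of the window, Hspa1b differed from Hspa1a by C44T, T47C and T249G, so the facing pair was the same in both and ended 97 bases before the start. Of their coding bases, 1915 of 1926 were the same (99.43%), and 39.7% of the 150-base stretches of the Hspa1a transcript also occurred in a transcript of another gene, mostly Hspa1b, so the split of reads between the pair is uncertain.

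Hspa1a and Hspa1b were among the most variable tested genes. Hspa1a ranged from 3.20 through a median of 8.27 to 21.6 CPM in saline muscle and from 2.98 through 7.51 to 78.1 CPM in secretome muscle. The groups overlapped: 4 of 10 secretome muscles were above the saline median, and these 4, replicates 6, 7, 9 and 10, all lay in libraries 16 to 20. Hspa1b ranged from 2.04 through 3.97 to 16.2 CPM in saline muscle and from 1.88 through 4.76 to 71.7 CPM in secretome muscle, with 5 of 10 secretome muscles above the saline median. From the lowest to the highest muscle this was a 26.2-fold range for Hspa1a and a 38.1-fold range for Hspa1b. The SD of log2 CPM of Hspa1a stood at percentile 95.0 of all tested genes in saline and 99.6 in secretome muscle, and that of Hspa1b at 97.8 and 99.9.

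Over all 20 muscles the secretome minus saline difference was 0.97 ± 0.54 (log2, SE) for Hspa1a, with an adjusted p of 0.391 (edgeR quasi-likelihood F-test, adjusted by Benjamini-Hochberg over all tested genes), and 1.35 ± 0.66 for Hspa1b (adjusted p = 0.331). Without secretome replicate 10, which held the highest values of both genes, the differences were 0.42 and 0.71, with a term for libraries 6 to 15 they were 0.50 and 0.69, and in voom with quality weights 0.095 and 0.16. Within libraries 6 to 15 the differences had the opposite sign, -0.96 ± 0.56 for Hspa1a (adjusted p = 0.789) and -1.03 ± 0.71 for Hspa1b (adjusted p = 0.796). Here Hspa1a ranged from 5.92 to 21.6 CPM in saline and from 2.98 to 7.54 CPM in secretome muscle, which overlapped, and the differences were -0.57 and -0.44 without saline replicate 6. Between libraries 16 to 20 and 1 to 5, Hspa1a was 7.47 to 78.1 CPM in secretome against 3.20 to 16.5 CPM in saline muscle, a difference of 1.89 ± 0.56 (unadjusted p = 0.00315, adjusted p = 0.0646, edgeR). Hspa1b was 3.03 to 71.7 against 2.04 to 12.99 CPM, a difference of 2.27 ± 0.70 (adjusted p = 0.0752, edgeR), and neither gene passed a 5% false discovery rate. Both passed in DESeq2 (adjusted p = 0.0157 and 0.0185) and in edgeR with GC and length trends removed (0.0365 and 0.04997). Both also passed in edgeR without secretome replicate 8, lowest of libraries 16 to 20 in both (differences of 2.15 and 2.57, adjusted p = 0.0316 and 0.0331). That was the 1 of 10 fits leaving out 1 library that passed, and the adjusted p reached 0.172 and 0.187. Neither passed in voom (adjusted p = 0.0844 and 0.164) or in edgeR with no filter (0.164 and 0.182). In an edgeR fit on libraries 1 to 5 and 16 to 20 alone the adjusted p was 0.199 and 0.201. With the pair summed to 1 gene before the fit, the difference over all muscles was 1.13 (adjusted p = 0.360, edgeR).

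The balance within the pair was most even where its level was highest, a pattern chosen for description after the values were seen. Reads on Hspa1a per read on Hspa1b ranged from 1.27 to 2.80 in saline and from 1.09 to 2.66 in secretome muscle. The 3 lowest ratios, 1.11, 1.09 and 1.09, fell in secretome replicates 7, 9 and 10, the 3 muscles with the most Hspa1a and Hspa1b. Secretome replicate 8, from the same range of libraries, had 7.47 CPM of Hspa1a, 3.03 CPM of Hspa1b and a ratio of 2.47, so libraries 16 to 20 were not alike.

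**Figure D1:**
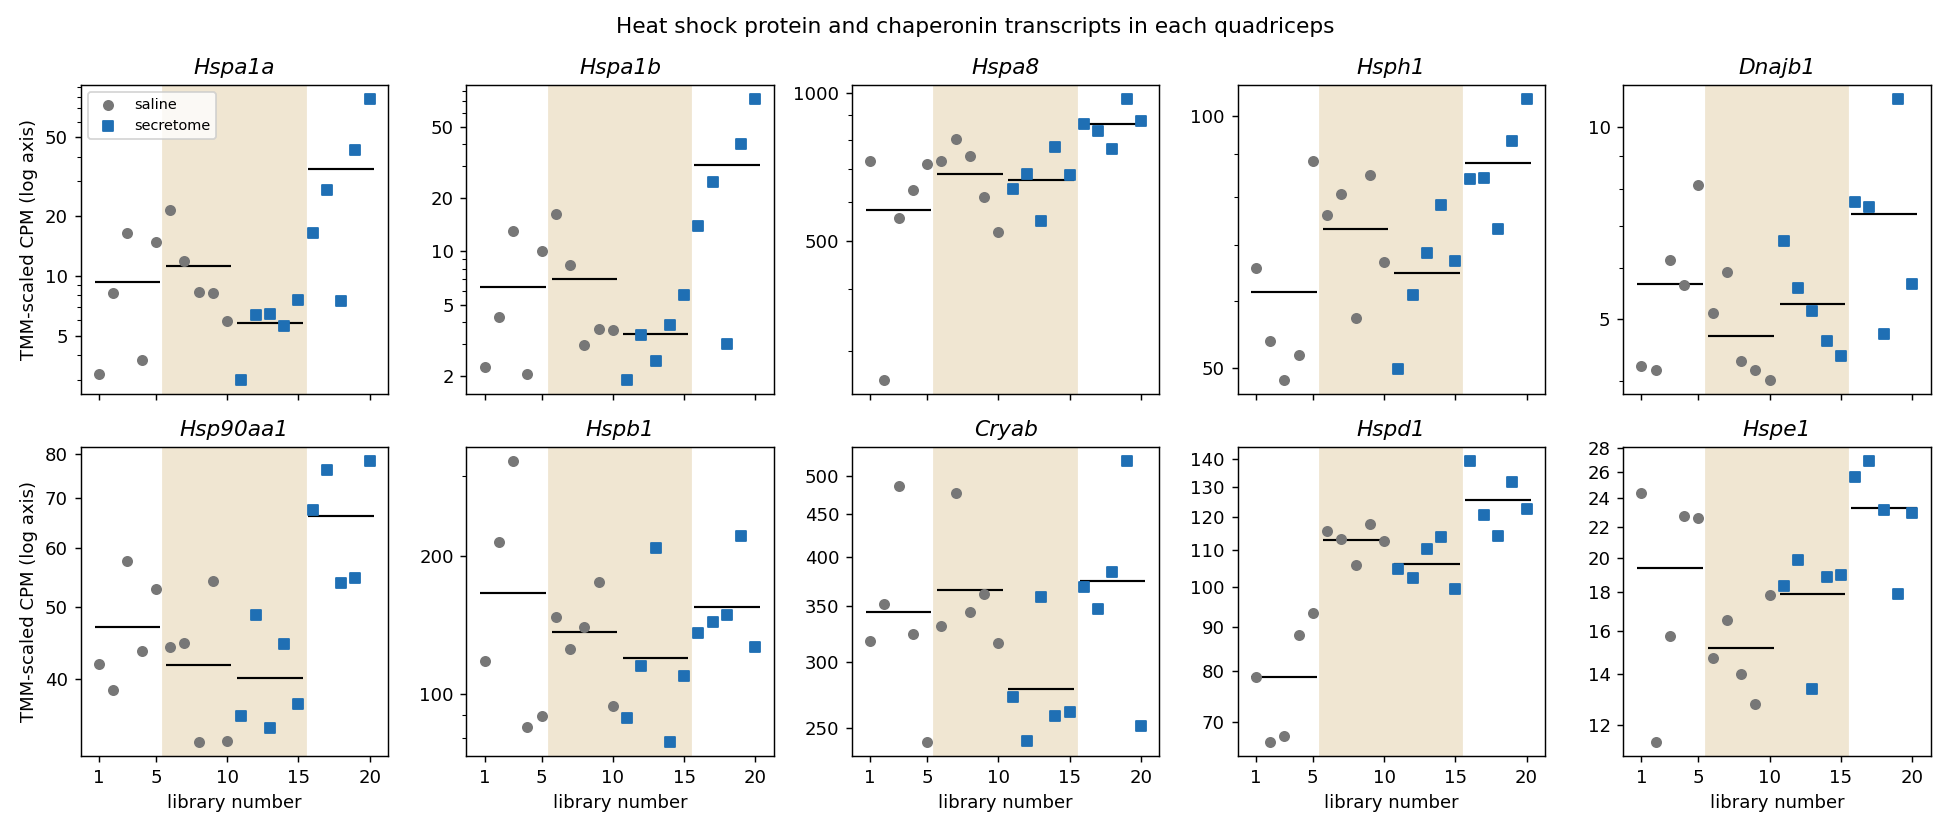
TMM-scaled CPM (log axis) of each of the 10 genes against library number, with saline muscles as grey circles, secretome muscles as blue squares, black lines for the mean of each run of 5 libraries and shading for libraries 6 to 15. Hspa1a and Hspa1b reached 78.1 and 71.7 CPM in secretome replicate 10, and Hspd1 was lowest in saline replicates 1 to 5, at 66.4 to 93.4 CPM.

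Hspa8 encodes the constitutive cytosolic HSP70, which also uncoats clathrin vesicles and delivers proteins to lysosomes. It ranged from 262 through 675 to 806 CPM in saline and from 551 through 772 to 970 CPM in secretome muscle, so the groups overlapped although 8 of 10 secretome muscles were above the saline median. Saline replicate 2, which also had the fewest counted reads, held the 262 CPM. The difference was 0.28 ± 0.15 over all muscles (adjusted p = 0.368, edgeR) and 0.19 without saline replicate 2, and it was -0.04 ± 0.19 within libraries 6 to 15 (adjusted p = 0.967, edgeR). Secretome libraries 16 to 20 (768 to 970 CPM) did not overlap saline libraries 1 to 5 (262 to 727 CPM), as for 4.85% of all genes in that comparison, a difference of 0.57 ± 0.19 (adjusted p = 0.0951, edgeR). Of the 150-base stretches of its transcript, 55.4% also occurred in transcripts of other genes, mostly the pseudogene Gm15459, on which 41 to 119 reads per library were counted.

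Hsph1 encodes HSP110, a nucleotide exchange factor of HSP70. Its level ranged from 48.3 through 66.3 to 88.3 CPM in saline and from 49.8 through 75.7 to 105 CPM in secretome muscle, and the groups overlapped. The difference was 0.18 ± 0.13 over all muscles (adjusted p = 0.504, edgeR), -0.17 ± 0.16 within libraries 6 to 15 (adjusted p = 0.812, edgeR) and 0.51 ± 0.16 between libraries 16 to 20 and 1 to 5 (adjusted p = 0.0724, edgeR). Without saline replicate 5, whose 88.3 CPM was the highest of saline libraries 1 to 5, the last difference was 0.68 with an adjusted p of 0.0153 in edgeR. Of the 10 edgeR fits that left out 1 library, this was the 1 that passed, and the adjusted p reached 0.180. It was 0.0284 in DESeq2 and 0.197 in an edgeR fit on libraries 1 to 5 and 16 to 20 alone. A facing pair of heat shock units lay 26 or 47 bases before the 2 listed starts of Hsph1, shown in capitals in 60 bases of the minus strand at chr5:149636336-149636395 (RefSeq, GRCm38.p6).
Hsph1: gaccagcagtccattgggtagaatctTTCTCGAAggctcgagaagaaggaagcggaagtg

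Dnajb1 encodes HSP40, the J-domain protein that hands clients to the inducible HSP70 and starts its ATP hydrolysis. It ranged from 4.00 through 4.70 to 8.10 CPM in saline and from 4.38 through 5.63 to 11.1 CPM in secretome muscle, with the groups overlapping. The difference was 0.28 ± 0.17 over all muscles (adjusted p = 0.425, edgeR) and 0.15 without secretome replicate 9, which held the 11.1 CPM. It was 0.16 ± 0.22 within libraries 6 to 15 and 0.37 ± 0.22 between libraries 16 to 20 and 1 to 5 (adjusted p = 0.858 and 0.343, edgeR), the last being 0.17 without secretome replicate 9. Dnajb1 and Hspe1 were the members with a difference above 0 in all 3 comparisons, none of them past the threshold.

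Hsp90aa1 encodes the inducible form of cytosolic HSP90. Saline muscle ranged from 32.9 through 43.9 to 57.6 CPM and secretome muscle from 34.4 through 51.3 to 78.4 CPM, which overlapped. The difference was 0.26 ± 0.15 over all muscles (adjusted p = 0.407, edgeR) and -0.06 ± 0.16 within libraries 6 to 15 (adjusted p = 0.929, edgeR). Between libraries 16 to 20 (53.8 to 78.4 CPM) and libraries 1 to 5 (38.7 to 57.6 CPM) it was 0.49 ± 0.16 (adjusted p = 0.0780, edgeR). The 3 highest values were secretome replicates 6, 7 and 10 at 67.4, 76.1 and 78.4 CPM, and Hspa1a was 16.5, 27.2 and 78.1 CPM in these muscles. Secretome replicate 9 had more Hspa1a than replicates 6 and 7, 43.3 CPM. Its Hsp90aa1 was 54.6 CPM, below the 57.6 CPM of saline replicate 3.

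The 2 small heat shock proteins among the members passed no test in edgeR. Hspb1 encodes HSP27, which binds actin and unfolded proteins, and Cryab encodes alpha-B crystallin, which holds desmin and titin in stressed fibres. Hspb1 ranged from 84.5 through 133 to 323 CPM in saline and from 78.4 through 131 to 221 CPM in secretome muscle, with overlapping groups. Its difference was -0.14 ± 0.23 over all muscles (adjusted p = 0.798, edgeR), -0.19 ± 0.33 within libraries 6 to 15 (adjusted p = 0.894, edgeR) and -0.10 ± 0.33 between libraries 16 to 20 and 1 to 5 (adjusted p = 0.894, edgeR). Saline replicate 3 held the 323 CPM, and without it the differences over all muscles and between the outer libraries became 0.06 and 0.29. That muscle also had the highest summed level of 6 neutrophil markers in the saline group (105 CPM, against 4.47 to 15.8 in the other saline muscles) and of 5 red blood cell markers (1375 CPM), and the part of these cells in the Hspb1 level was not tested. Secretome replicate 8 had 114 CPM of the neutrophil markers and 149 CPM of Hspb1, within the range of its group.

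Cryab ranged from 240 through 337 to 486 CPM in saline and from 241 through 310 to 521 CPM in secretome muscle, and the groups overlapped. Its difference was -0.12 ± 0.14 over all muscles (adjusted p = 0.699, edgeR). Within libraries 6 to 15, Cryab was 315 to 477 CPM in saline and 241 to 358 CPM in secretome muscle, a difference of -0.39 ± 0.18 with an unadjusted p of 0.0442 and an adjusted p of 0.789 in edgeR. It was 0.12 ± 0.18 between libraries 16 to 20 and 1 to 5 (adjusted p = 0.736, edgeR), and -0.02 without secretome replicate 9, which held the 521 CPM. The first of these was lower than the second by a difference of -0.52 ± 0.26 (adjusted p = 0.477, edgeR). Slow fibres are known to be rich in alpha-B crystallin. Within libraries 6 to 15, where Cryab had its difference of -0.39, the 6 slow fibre markers summed to 1.07 to 419 CPM in saline and 1.85 to 35.6 CPM in secretome muscle. Of these 6 markers 0 had a difference above 0, against 46% of all genes, with a median of -2.84 (log2). In edgeR 0 passed the false discovery rate and 1 was lower at an unadjusted p under 0.05, against 3.34% of all genes. Between libraries 16 to 20 and 1 to 5, the markers above 0 were 6 of 6, against 44.6% of all genes. Their median there was 0.71 (log2). Over all 20 muscles they reached 437 CPM, and 0 was at 0 in a group. Their part in the Cryab difference was not tested. The 419 CPM was 1 muscle, saline replicate 8, which held 344 CPM of Cryab. Saline replicate 3, highest of its group in Cryab and Hspb1, had 2.59 CPM of the slow fibre markers.

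The Hspb1 window is shown as the only one with facing pairs at separate places, 110 and 90 bases before the start, at chr5:135887669-135887918 on the plus strand (RefSeq, GRCm38.p6), with the pairs in capitals.
Hspb1: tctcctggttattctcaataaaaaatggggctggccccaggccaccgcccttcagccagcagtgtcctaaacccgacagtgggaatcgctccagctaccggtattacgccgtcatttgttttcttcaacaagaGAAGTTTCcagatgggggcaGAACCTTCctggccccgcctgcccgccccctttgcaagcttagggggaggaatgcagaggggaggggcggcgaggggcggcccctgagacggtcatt

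**Figure D2:**
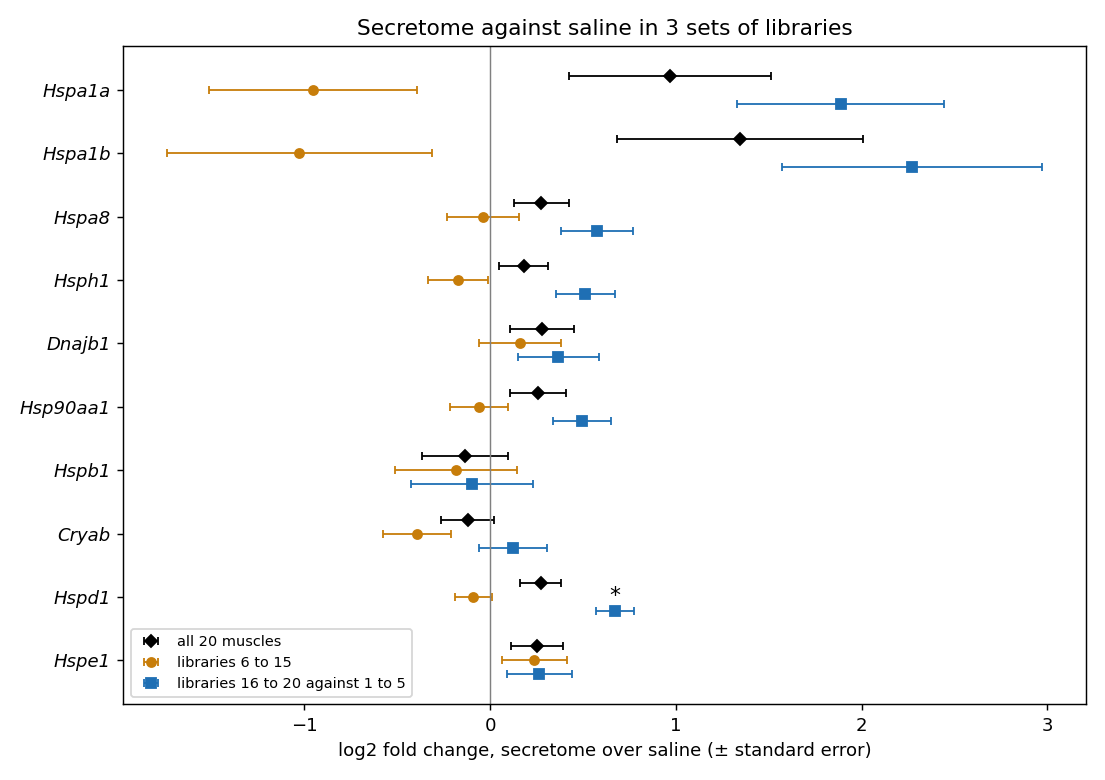
Log2 fold change of secretome over saline with its standard error for each of the 10 genes, over all 20 muscles (black diamonds), within libraries 6 to 15 (orange circles) and between libraries 16 to 20 and 1 to 5 (blue squares), with an asterisk at an adjusted p under 0.05. Only the blue Hspd1 value, 0.67, has an asterisk, and the Hspa1a and Hspa1b values lie on opposite sides of 0 in the orange and blue sets.

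Hspd1 and Hspe1 encode HSP60 and HSP10, the barrel and the lid of the mitochondrial chaperonin, and are transcribed away from each other from a shared stretch of chromosome 1. The Hspd1 window is shown because it overlaps that of Hspe1 by 215 bases and holds the densest run of heat shock units among the members. It lies at chr1:55087933-55088182 on the minus strand (RefSeq, GRCm38.p6), and capitals mark a run of overlapping facing pairs.
Hspd1: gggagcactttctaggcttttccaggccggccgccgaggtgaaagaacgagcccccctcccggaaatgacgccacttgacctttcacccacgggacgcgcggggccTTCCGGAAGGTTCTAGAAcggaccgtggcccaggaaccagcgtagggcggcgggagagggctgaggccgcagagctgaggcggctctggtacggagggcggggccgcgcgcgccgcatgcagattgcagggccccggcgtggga
The run of 18 bases, at chr1:55088059-55088076, reads as follows on the 2 strands.
Hspd1 strand: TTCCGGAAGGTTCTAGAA
Hspe1 strand: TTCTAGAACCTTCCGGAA
Of 32817 windows of the same length, 12.8% held GAANNTTC or TTCNNGAA, each of which is its own reverse complement, so that both strands were covered. Windows were given for 7 of the 10 members. Of these 7, 6 held at least 1 such pair: Hspa1a, Hspa1b, Hsph1, Hspb1, Hspd1 and Hspe1. The 12.8% counts windows, while the 6 of 7 counts genes. Hsph1, Dnajb1 and Hspd1 had 2 windows each, and 1 of the 2 for Hspd1 held a pair. The near-identical Hspa1a and Hspa1b windows, and the run shared by Hspd1 and Hspe1, were counted for each gene. Runs of 3 units in alternating direction, GAANNTTCNNGAA or TTCNNGAANNTTC, occurred in 0.47% of windows and in 2 members, Hspd1 and Hspe1, through the same shared bases. A match is a description of letters and not a measured binding site, and no window was given for Hspa8, Hsp90aa1 or Cryab.

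Hspd1 was the member with the clearest change between libraries 16 to 20 and 1 to 5. It ranged from 66.4 through 99.7 to 118 CPM in saline and from 99.5 through 114 to 139 CPM in secretome muscle, so the groups overlapped although 9 of 10 secretome muscles were above the saline median. Over all muscles the difference was 0.27 ± 0.11 with an unadjusted p of 0.0206 and an adjusted p of 0.245 in edgeR. Within libraries 6 to 15, saline muscles held 106 to 118 CPM and secretome muscles 99.5 to 114 CPM, a difference of -0.09 ± 0.10 (adjusted p = 0.835, edgeR). In libraries 16 to 20 secretome muscles held 114 to 139 CPM, all above the 66.4 to 93.4 CPM of saline libraries 1 to 5. That difference, 0.67 ± 0.10, passed the 5% false discovery rate (adjusted p = 0.00564, edgeR), as 3.68% of all genes did, and did so with each of the 10 libraries left out. In a fit on those 10 libraries alone, where 0 genes passed and 2360 had an unadjusted p under 0.05, it was also 0.67, with an adjusted p of 0.103 in edgeR.

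The Hspd1 difference was itself unlike between the 2 sets of libraries. It was 0.76 lower on the log2 scale within libraries 6 to 15 than between libraries 16 to 20 and 1 to 5 (-0.76 ± 0.14, adjusted p = 0.0466, edgeR), and of the 14471 genes 8 passed this test (0.0553%). The call was lost in 19 of 20 edgeR fits that left out 1 library, where the adjusted p ran from 0.0322 to 0.128. In edgeR it therefore sat at the threshold. The adjusted p was 0.0849 with upper-quartile scaling and 0.157 with no filter in edgeR. It was 0.0481 with RLE scaling and 0.0420 with GC and length trends removed in edgeR, 0.0182 in voom and 6.6e-05 in DESeq2. The SD of log2 CPM of Hspd1 stood at percentile 39.0 of tested genes in saline and 18.05 in secretome muscle. Saline libraries 6 to 10 were 0.52 (log2) above saline libraries 1 to 5, while secretome libraries 16 to 20 were 0.24 above secretome libraries 11 to 15, as description. The summed muscle fibre markers were lowest in the same saline libraries 1 to 5 (123647 to 198118 CPM, against 218207 to 335494 CPM elsewhere). That sum includes Ttn, whose share drew the ranges, so its order was set in part by how the ranges were drawn. Fibroblast markers were highest in saline libraries 1 to 5 (776 to 1128 CPM, against 184 to 687 CPM elsewhere). The part of this makeup in the Hspd1 difference was not tested.

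Hspe1, the partner of Hspd1, passed no test. It ranged from 11.4 through 16.1 to 24.4 CPM in saline and from 13.4 through 19.4 to 26.9 CPM in secretome muscle, which overlapped, with 9 of 10 secretome muscles above the saline median. Its difference was 0.25 ± 0.14 over all muscles (adjusted p = 0.383, edgeR), 0.24 ± 0.17 within libraries 6 to 15 (adjusted p = 0.799, edgeR) and 0.27 ± 0.17 between libraries 16 to 20 and 1 to 5 (adjusted p = 0.393, edgeR). The last was 0.13 without saline replicate 2, which held the 11.4 CPM. Where Hspd1 was 0.52 higher in saline libraries 6 to 10 than 1 to 5, Hspe1 was 0.35 lower (-0.35, log2).

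The ratio of the chaperonin pair was chosen for description after the values were seen. Reads on Hspd1 per read on Hspe1 were 3.23 to 5.84 in saline libraries 1 to 5 and 6.33 to 9.23 in saline libraries 6 to 10. How many other pairs of genes had ratios as far apart between these saline libraries was not counted. In secretome muscle the ratio was 5.15 to 8.26 in libraries 11 to 15 and 4.48 to 7.34 in libraries 16 to 20. Over all muscles its geometric mean was 5.61 in saline and 5.70 in secretome muscle.

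**Figure D3:**
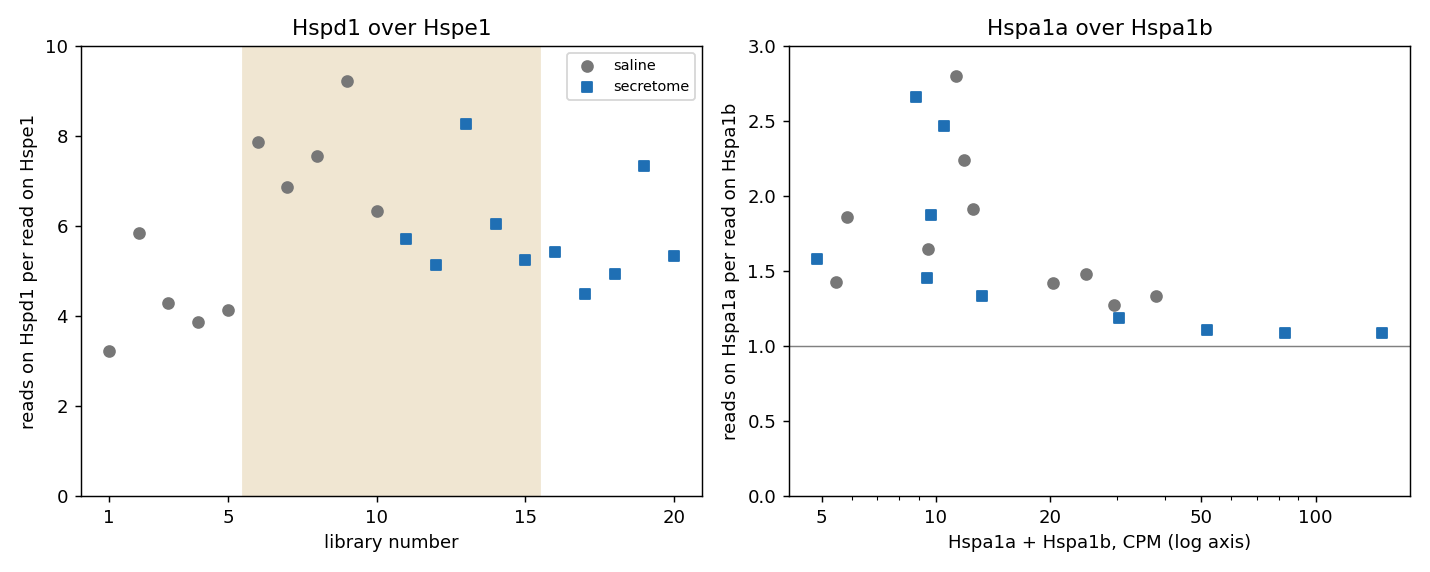
Left, reads on Hspd1 per read on Hspe1 against library number, with libraries 6 to 15 shaded. Right, reads on Hspa1a per read on Hspa1b against their summed CPM (log axis), with a grey line at 1. Saline muscles are grey circles and secretome muscles blue squares. The Hspd1 ratio is 3.23 to 5.84 in saline libraries 1 to 5 and 6.33 to 9.23 in saline libraries 6 to 10, and the Hspa1a ratio is 1.09 in secretome replicates 9 and 10.

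Across the family, 0 of 10 members passed the 5% false discovery rate over all muscles in edgeR, as 0.00691% of all tested genes did, and 0 passed in DESeq2 or in voom. At an unadjusted p under 0.05, 1 member (Hspd1) was higher, against 6.52% of all genes, and 0 were lower, against 9.21%. The difference was above 0 for 8 of 10 members, against 44.1% of all genes, and the median was 0.27 against -0.03 for all tested genes. The groups did not overlap for 0 members, as for 0.0484% of all genes. In voom with quality weights the differences of Hspa8, Hsph1 and Dnajb1 over all muscles were 0.17, 0.085 and 0.15. A p that misses the threshold does not show that levels were alike.

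Within libraries 6 to 15, 0 of 10 members passed the false discovery rate (all genes 0%) in edgeR, DESeq2 and voom, and at an unadjusted p under 0.05, 1 (Cryab) was lower, against 3.34% of all genes, and 0 were higher, against 2.43%. The difference was above 0 for 2 of 10 members, Dnajb1 and Hspe1, against 46% of all genes, with a median of -0.13 against -0.03 for all genes. Those of Hspa8 and Hsp90aa1, -0.04 and -0.06, turned positive with 1 library left out in 2 fits and 1 fit of 10. The groups did not overlap for 0 members, against 1.91% of all genes. Macrophage markers moved in the same libraries: 5 of 7 were lower at an unadjusted p under 0.05, against 3.34% of all genes, and 0 passed the false discovery rate in edgeR, with a median of -0.96 (log2) and a sum of 40.5 to 104 CPM in saline and 32.7 to 44.9 CPM in secretome muscle. Their part in the members' values was not tested.

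Between libraries 16 to 20 and 1 to 5, 1 member rose past the false discovery rate, where 3.68% of all genes passed, 1.64% higher and 2.03% lower (238 higher and 294 lower, but 140 and 364 with upper-quartile scaling, and 635 and 331 with trends on GC and length removed). At an unadjusted p under 0.05, 6 members were higher (Hspa1a, Hspa1b, Hspa8, Hsph1, Hsp90aa1 and Hspd1), against 9.56% of all genes, and 0 were lower, against 11.6%. The difference was above 0 for 9 of 10 members, against 44.6% of all genes, with a median of 0.50 against -0.05 for all genes, and groups did not overlap for 2 members, Hspa8 and Hspd1, as for 4.85% of all genes. In DESeq2 those 6 members passed the false discovery rate, in voom Hspd1 and Hsp90aa1 did, and in the fit on those 10 libraries alone 0 did. In the test of the difference between the sets of libraries, 1 member (Hspd1) passed, and 6 were lower within libraries 6 to 15 at an unadjusted p under 0.05, against 5.51% of all genes. The value was above 0 for 0 of 10 members, against 51.7% of all genes. The largest values were those of Hspa1a (-2.84 ± 0.79) and Hspa1b (-3.30 ± 0.99), whose adjusted p were 0.181 and 0.206 in edgeR. These 2 genes passed in DESeq2 (adjusted p = 0.0363 and 0.0493) and not in voom (adjusted p = 0.0724 and 0.159).

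Members were then compared muscle by muscle. Over the 45 pairs, Pearson's r of log2 CPM passed 5% after Benjamini-Hochberg adjustment in 15, all positive (permutation test, 100000 resamples), but in 2 within libraries 6 to 15 and in 3 on deviations from the means of the 4 runs of libraries. Leaving out the 2 muscles farthest from the median of the first gene, 7 passed. The lowest r among the 15 pairs was 0.53, and over all muscles 5.88% of all pairs of tested genes had an r at least as high. It was reached within libraries 6 to 15 by 7 of the 45 member pairs, against 10.7% of all pairs, and on deviations 5 did, against 7.25%. Pairs share genes and muscles, so these shares are a description.

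Hspa1a and Hspa1b, which share reads, had r = 0.97 over 20 muscles (rho = 0.91, 0.95 without the 2 farthest), 0.90 within libraries 6 to 15 and 0.96 on deviations, each with an adjusted p of at most 0.0239 by permutation. Hspb1 and Cryab had r = 0.71 (rho = 0.76, adjusted permutation p = 0.00423 and 0.00293), 0.55 without the 2 farthest and 0.70 on deviations (adjusted permutation p = 0.0293), and 0.56 within libraries 6 to 15 (adjusted permutation p = 0.468). Hspb1 and Hspe1 ran in opposite directions, with r = -0.48 over all muscles (rho = -0.41, adjusted permutation p = 0.0811 and 0.138), -0.52 without the 2 farthest, -0.86 within libraries 6 to 15 (adjusted permutation p = 0.0295) and -0.80 on deviations (adjusted permutation p = 0.0405). These 3 pairs were the ones that passed on deviations. For Hspb1 and Hspe1, the share of all gene pairs with an r as far below 0 was not counted.

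Other pairs passed over all muscles and in neither of the other settings by library range. Hspa1b and Hsp90aa1 had r = 0.74 over all muscles (rho = 0.70, adjusted permutation p = 0.00423 and 0.0109), 0.67 without the 2 farthest, 0.36 within libraries 6 to 15 (adjusted permutation p = 0.668) and 0.52 on deviations (adjusted permutation p = 0.250). Hsph1 and Hspd1 had r = 0.70 (rho = 0.76, adjusted permutation p = 0.00423 and 0.00375), 0.62 without the 2 farthest, 0.73 within libraries 6 to 15 (adjusted permutation p = 0.271) and 0.59 on deviations (adjusted permutation p = 0.250). The chaperonin pair, Hspd1 and Hspe1, had r = 0.26 (rho = 0.21, adjusted permutation p = 0.367 and 0.477), -0.13 without the 2 farthest, -0.54 within libraries 6 to 15 (adjusted permutation p = 0.491) and 0.45 on deviations (adjusted permutation p = 0.460).

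**Figure D4:**
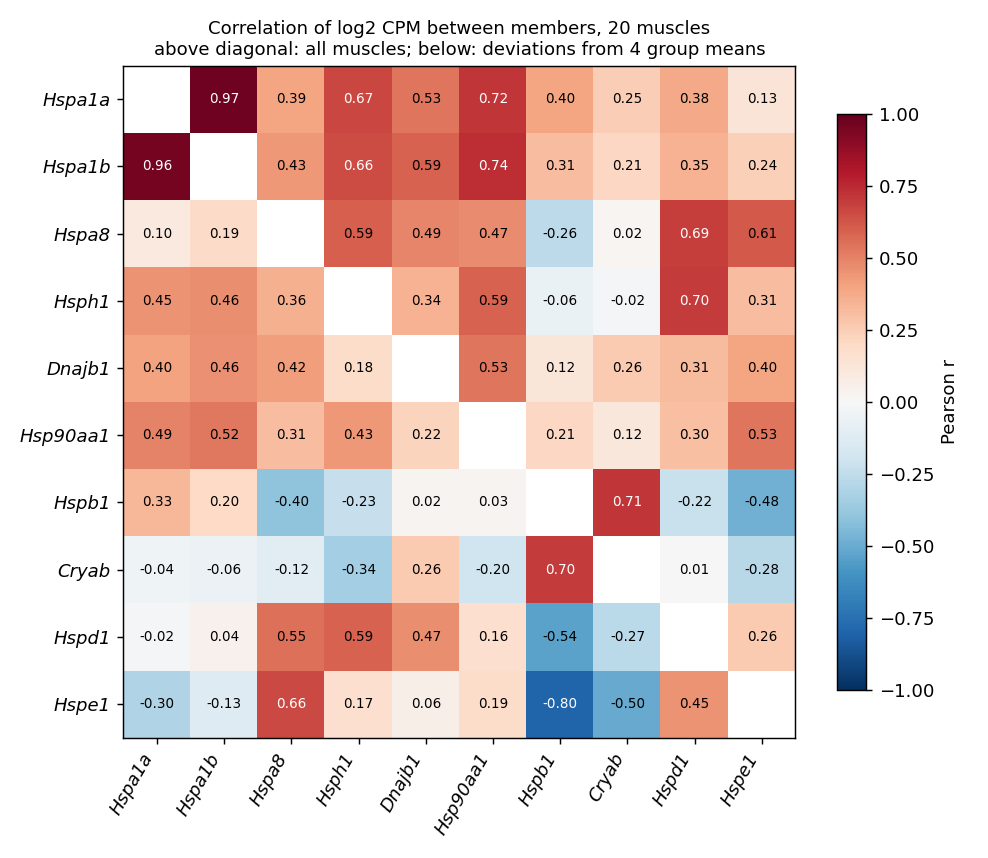
Pearson's r of log2 CPM for each pair of the 10 genes over 20 muscles, above the diagonal as measured and below it on deviations from the means of the 4 runs of 5 libraries, coloured from -1 (blue) to 1 (red). The strongest values are 0.97 and 0.96 for Hspa1a with Hspa1b, and Hspb1 with Hspe1 is -0.80 below the diagonal.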

How the data were processed

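The authors deposited whole-number counts of reads per gene, without normalization, for 20 quadriceps muscles. The labels describe stranded total RNA libraries read in pairs, and the submitters' processing notes name cutadapt 1.16, STAR 2.7.9a, featureCounts 1.6.3, DESeq2 1.34.0 and the build GRCm39. The extraction protocol in the labels speaks of myotubes, while the tissue is given as quadriceps. How reads matching several genes were counted is not given in the sources used here, which can move reads between Hspa1a and Hspa1b and between members and their pseudogenes.

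Genes were filtered with filterByExpr and scaled by TMM in edgeR 4.0.16 (R 4.3.3), and compared with the robust quasi-likelihood test, Benjamini-Hochberg adjusted over 14471 genes at a 5% false discovery rate. The all-muscle fit had the treatment as its only term, and the other comparisons came from 1 fit of 4 groups of 5 libraries. Each standard error is the absolute log2 fold change divided by the square root of F, and log2 CPM used a prior count of 2. CPM and ratios were computed here from the counts. Exon lengths came from GENCODE M21 (GRCm38). The steps were also run on simulated counts with known changes. All libraries there otherwise shared the same mean levels, so a shift between library ranges was not part of that check. Counting depth limits the precision of low genes.

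The members and the lists were chosen with earlier results of these data known. Named genes were all members, the 2 genes of each list with the smallest p over all muscles, up to 3 past the threshold in the other comparisons, and the 3 genes most correlated with Hspa1a, Hsp90aa1, Cryab and Hspd1. Alternatives were DESeq2 1.42.0, voom of limma 3.58.1, RLE and upper-quartile scaling, no filter, the replicate block, a term for library range, separate fits, a 10% threshold, the Hspa1 pair summed, each library left out and, after the data were seen, removal of GC and length trends.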

Additional observations from a re-analysis of the deposited data

Results flagged for a closer look

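Hspa8 in saline replicate 2 was far from the other saline muscles. Its log2 CPM was 8.03, while the next lowest saline muscle had 9.03, a gap of 0.614 of the range of the group, above the 95% critical value of Dixon's test for 10 samples. Of 24 groups of values examined, 1 held such a value, and chance gives about 1.2. The difference of Hspa8 over all muscles was 0.28 (log2) with this muscle and 0.19 without it.

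The secretome difference of Hspd1 was unlike between library sets. It was -0.76 (log2) for libraries 6 to 15 minus libraries 16 to 20 and 1 to 5, with an adjusted p of 0.0466 in edgeR. The call was lost in 19 of the 20 edgeR fits without 1 library.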

How the results depend on the processing

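Directions and calls were recomputed under each alternative. Genes past the threshold over all muscles, 1 here, were 213 in DESeq2 (67 higher), 3 in voom, 3 at a 10% false discovery rate, 0 with trends on GC and length removed, and 0 to 15 with 1 library left out (0 without saline replicate 6, 15 without saline replicate 5). Between libraries 16 to 20 and 1 to 5, 532 (238 higher) became 504 with upper-quartile scaling (140 higher), 1125 in DESeq2 (604 higher), 216 with no filter, 0 in a separate fit, 966 with GC and length trends removed (635 higher) and 72 (without secretome replicate 6) to 823 (without saline replicate 5), and members past it, 1 here, were 6, 2 (voom), 0 (separate fit), 4 (GC and length) and 1 to 3. For the difference between library sets, 8 genes became 180 (DESeq2), 4 (upper quartile), 2 (no filter), 149 (voom) and 1 to 9, and 1 member became 3, 0, 0 and 0 to 1 (DESeq2, upper quartile, no filter, leaving out). Correlated pairs, 15 here, were 2, 3 and 7 in the alternatives given, and 11 to 15 with 1 muscle left out.

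Directions reversed for Hspe1 in the difference between library sets (0.0086 upper quartile, 0.073 voom), for Hspb1 between the outer libraries (0.41 voom, 0.27 GC and length) and, with GC and length trends removed, over all muscles for Hspb1 (0.13), Cryab (0.038), Hsp90b1 (-0.0052) and Hspb2 (0.10). With 1 library left out, Hspb1 ran from -0.24 to 0.059 and Hsp90b1 from -0.024 to 0.11 over all muscles, Hspa8 from -0.12 to 0.032 and Hsp90aa1 from -0.14 to 0.050 in libraries 6 to 15, Hspb1 from -0.26 to 0.29 and Cryab from -0.025 to 0.28 between the outer libraries, and in the difference Hspb1 from -0.48 to 0.079 and Hspe1 from -0.13 to 0.11. The ratio Hspd1 over Hspe1 (log2) ran from -0.065 to 0.10 over all muscles and Hspa1a over Hspa1b from -0.23 to 0.087 in libraries 6 to 15. The causes were not tested. Deviations of same-numbered replicates from their treatment means had correlations of -0.24 to 0.221, 2 of 10 over 0.1. Same-numbered muscles lie in different ranges of libraries, so these correlations cannot tell whether the numbers pair the muscles. The replicate block gave 0 genes and no change in a member's call over all muscles, with Hspa1a at 0.39 and Hspa1b at 0.56. Low counts limit Dnajb1, Hspa1a and Hspa1b most.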

Other observations

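The other genes of the chaperone network were counted in 8 lists. Over all muscles and within libraries 6 to 15, 0 genes of these lists passed the 5% false discovery rate in edgeR. At an unadjusted p under 0.05 a list held 0 to 10 higher and 0 to 1 lower genes over all muscles, where 6.52% of all genes were higher and 9.21% lower, and 0 to 1 of each within libraries 6 to 15, where the shares of all genes were 2.43% and 3.34%. The 10 were of 36 J-domain proteins. In DESeq2, Dnajc21 passed over all muscles (0.29, adjusted p = 0.0465). Between libraries 16 to 20 and 1 to 5, 6 genes passed in edgeR, where 1.64% of all genes passed as higher and 2.03% as lower. HSP70 relatives gave 2 of 11 higher: Hspa9, which encodes mortalin, the HSP70 of the mitochondrial matrix, rose by 0.60 (log2, adjusted p = 0.0120, edgeR), and Hspa4, an HSP110 relative, rose by 0.42 (adjusted p = 0.0232, edgeR). Both had values near 0 within libraries 6 to 15, -0.02 and 0.00. J-domain proteins gave 3 of 36 higher: Dnajc21 by 0.42, which works in ribosome assembly, Dnajc27 by 0.48, and Dnajb11 by 0.42, a partner of BiP in the endoplasmic reticulum (adjusted p = 0.0327, 0.0333 and 0.0459, edgeR). Hsbp1, which binds HSF1 and is known to hold it back, fell by 0.36 (adjusted p = 0.0310, edgeR), the 1 gene of 4 in the HSF1 list. Of the 12 genes of mitochondrial protein folding, a list that shares Hspa9, 1 passed and 6 were higher at an unadjusted p under 0.05, against 9.56% of all genes, with a median of 0.30 against -0.05 for all genes. In the HSP90 relatives (3 tested), small heat shock proteins (5 tested), co-chaperones (21 tested) and the cytosolic chaperonin with prefoldin (14 tested), 0 passed in edgeR. At an unadjusted p under 0.05, these lists had 1, 0, 6 and 6 higher genes and 0, 1, 0 and 2 lower genes, where 9.56% of all genes were higher and 11.6% lower. In the fit on those 10 libraries alone, 0 of the 6 genes passed, with adjusted p of 0.103 to 0.184 in edgeR. With 1 of the 10 libraries left out, Hspa9 passed in each fit, while the call was lost in 4 of 10 fits for Hspa4, in 5 for Hsbp1, in 6 each for Dnajc21 and Dnajc27, and in 9 for Dnajb11.

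Over all muscles the leading genes by p, 2 for each list, were Hsbp1 (-0.18) and Hsf4 (-0.21), Hspa9 (0.28) and Hspa4l (0.35), Trap1 (0.13) and Hsp90b1 (0.05), Hspb3 (-0.20) and Hspb2 (-0.13), Dnajc21 (0.28) and Dnajb4 (0.35), Ahsa2 (0.20) and St13 (0.15), Vbp1 (0.26) and Cct8 (0.16), and Hspa9 again with Grpel1 (-0.18), all log2 secretome minus saline. Their adjusted p in edgeR ran from 0.151 for Dnajc21 to 0.874 for Hsp90b1.

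The genes whose log2 CPM was most like that of a member over the 20 muscles are given as description. For Hsp90aa1 they were Serpinh1, the collagen chaperone of the endoplasmic reticulum (r = 0.78), Aldh18a1, an enzyme of proline synthesis (0.73), and Stip1, the adaptor between HSP70 and HSP90 (0.71). Within libraries 6 to 15 these r were 0.72, 0.46 and 0.02. For Hspd1 they were Xpot, a tRNA exporter (r = 0.93), Hspa9 (0.92) and Gfm2, a mitochondrial translation factor (0.89), but 0.40, 0.04 and 0.01 within libraries 6 to 15. For Cryab they were Lrg1, Arc and Ctsb (r = 0.77, 0.77 and 0.76, and 0.64, 0.83 and 0.60 within libraries 6 to 15), and for Hspa1a 5031439G07Rik, C2cd2 and Pgm1 (r = 0.76 for each, and 0.56, 0.58 and 0.61 within libraries 6 to 15).

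Immediate early genes, which respond to injury and handling, summed to 332 to 1031 CPM in saline and 369 to 922 CPM in secretome muscle. In edgeR 0 of 13 passed in the 4 tests, where 0% to 3.68% of all genes passed. Of the 13, 1 was higher at an unadjusted p under 0.05 within libraries 6 to 15, against 2.43% of all genes. The difference between library sets had 1 lower at that p, against 5.51%. Over all muscles and between libraries 16 to 20 and 1 to 5, 0 were called in either direction. There, 6.52% and 9.56% of all genes were higher and 9.21% and 11.6% lower. Summed macrophage markers were 40.5 to 139 and 32.7 to 103 CPM. Of the 7, 5 were lower at an unadjusted p under 0.05 over all muscles (median -0.75), against 9.21% of all genes, and 3 between libraries 16 to 20 and 1 to 5 (median -0.59), against 11.6%, with 0 past the false discovery rate in edgeR. Of the endothelial, adipocyte, neutrophil and red blood cell markers 0 passed. The 1 call at an unadjusted p under 0.05 was an endothelial marker, lower between libraries 16 to 20 and 1 to 5. In that comparison 11.6% of all genes were lower at that p. Endothelial markers summed to 108 to 193 and 111 to 172 CPM, and adipocyte markers 18.5 to 119 and 9.24 to 50.5 CPM. Neutrophil markers summed to 4.47 to 105 and 3.76 to 114 CPM, and red blood cell markers to 100 to 1375 and 100 to 941 CPM. No marker of these lists was at 0 in a group.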
